A study of Homo sapiens with 6 samples.

Results

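The alkaline phosphatase family has 4 genes in humans, ALPP, ALPG, ALPI and ALPL, and each had a row in the deposited table of 50868 genes. They were taken by gene symbol, and the family was chosen because ALPP was among the strongest decreases in this comparison. ALPP was the 52nd lowest of 14250 tested genes by log2 fold change and had the 4th smallest p-value, with no numeric cut-off behind the choice. The difference between the groups is therefore given for the 4 genes as a description, with no test of them. Only 2 of the 4 members, ALPP and ALPG, had enough counts to enter the comparison, ALPP in both groups and ALPG through the nc libraries alone.

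RNA sequencing was done on KYSE-150, an established human line of oesophageal squamous cell carcinoma, grown in RPMI 1640 medium with 10% fetal bovine serum. A control group, nc, called wild type in the series text, and a group treated against ZNF514, siZNF514, which the labels also call a ZNF514 knockout, had 3 libraries each. The labels do not say how the knockout was made, although the prefix si commonly stands for RNA interference, and no control treatment of nc is named in them. Separate cultures within a group are not stated, so a p-value here reflects library-to-library spread alone, which may be technical. The libraries held 12175259 to 14318909 counts. All 11 squamous epithelial markers examined had counts. So did all 7 fibroblast and endothelial markers, at far lower summed levels (given below), so presence of counts alone does not mark a cell type. The library siZNF514 replicate 3 stood apart in genes of different kinds. Among stromal and bone matrix genes it had 112 counts of COL3A1, 33 of DCN and 35 of SPP1, each at 0 in the other siZNF514 libraries. It also had 59 counts of BST2, against 9 and 10 in the others, and 19 of ACP5, against 2 and 4. ZNF514 had 239, 273 and 261 counts in nc and 64, 82 and 63 in siZNF514, and fell from 19.4 ± 1.05 to 5.31 ± 0.871 CPM (counts-per-million, scaled by TMM; mean ± SD, n = 3; Benjamini-Hochberg adjusted p = 5.77e-05 by edgeR's quasi-likelihood test).

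Alkaline phosphatases are homodimeric enzymes held on the outer face of the plasma membrane by a glycosylphosphatidylinositol (GPI) anchor, where they remove phosphate groups from small molecules, proteins and lipids. Each active site needs zinc and magnesium, and zinc is loaded in the secretory pathway. ALPP encodes the placental enzyme of the syncytiotrophoblast, ALPG the closely related germ cell enzyme, and ALPI the intestinal enzyme of the enterocyte brush border. ALPL encodes the tissue-nonspecific enzyme of bone, liver and kidney, which degrades the mineralisation inhibitor pyrophosphate and dephosphorylates vitamin B6. ALPP and ALPG are known for ectopic expression in tumours, ALPP being the classical Regan isoenzyme of carcinomas.

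ALPP was the alkaline phosphatase transcript of these cells, and it was lower in siZNF514. Its counts were 2555, 2789 and 2545 in nc and 273, 271 and 324 in siZNF514. As scaled levels these were 198.3, 195.6 and 200.8 CPM in nc against 21.4, 20.8 and 23.7 CPM in siZNF514. The libraries within a group lay close together and the groups were far apart, the lowest nc library being 8.24-fold above the highest siZNF514 library. The siZNF514 mean of 22.0 ± 1.56 CPM (SD, n = 3) was 9.02-fold below the nc mean of 198 ± 2.59 CPM. The fitted log2 fold change was -3.17 (SE 0.06), and -3.22 (SE 0.05) without siZNF514 replicate 3. Over the summed counts, 7889 in nc and 868 in siZNF514, the siZNF514 level was 11.1% of the nc level, with an exact 95% Clopper-Pearson interval of 10.3% to 11.9%. The interval covers counting error of reads only, because the counts of each group were pooled, and leaves out spread between libraries. Reads carried no molecular identifiers. In bulk RNA, fewer cells with the transcript and less transcript per cell cannot be told apart.

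The spread of ALPP between libraries is given beside counting error. The nc libraries had a coefficient of variation of 1.31%, where counting error alone gives 1.95%, and the siZNF514 libraries had 7.11%, where it gives 5.88%. A chi-square of the counts over libraries was 0.910 in nc and 2.97 in siZNF514, each with 2 degrees of freedom. ALPP was chosen from these libraries as being among the strongest decreases, and had the 4th smallest p-value in them, so this spread is a description only.

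ALPG was present at a far lower level and was lower in siZNF514 too. Its counts were 46, 67 and 59 in nc and 2, 1 and 4 in siZNF514, which are 3.57, 4.70 and 4.65 CPM against 0.157, 0.0767 and 0.293 CPM. Every siZNF514 library lay below every nc library, and transcript counts remained in each of them. The mean was 4.31 ± 0.639 CPM (SD, n = 3) in nc and 0.176 ± 0.109 CPM in siZNF514, with a fitted log2 fold change of -4.53 (SE 0.35). Over the summed counts, 172 and 7, the siZNF514 level was 4.11% of nc, with an exact 95% interval of 1.63% to 8.65%. With so few counts in siZNF514, the fitted value moved with single libraries, from -5.09 without siZNF514 replicate 3 to -4.18 without siZNF514 replicate 2. Non-overlap of the groups in the downward direction, seen for ALPP and ALPG, was common in this comparison, at 30.3% of all tested genes, and is not a result about the members.

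ALPI and ALPL had no count in any of the 6 libraries. Per library, a count of 0 allows up to 3 counts, or 0.210 to 0.246 CPM of the library totals, and over a whole group it allows up to 0.0786 CPM in nc and 0.0727 CPM in siZNF514. No fold change can be given for these 2 genes. They were among 24873 genes of the table with no count in any library, so neither the intestinal nor the tissue-nonspecific transcript was detectable at this depth in nc or in siZNF514.

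**Figure D1:**
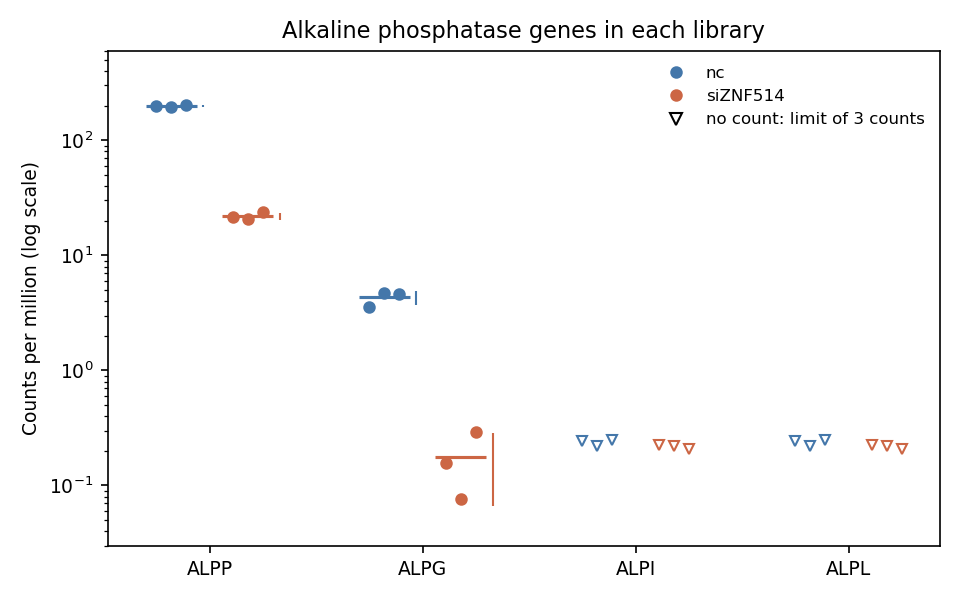
Scaled level in CPM (log axis) of the 4 alkaline phosphatase genes in each library, nc in blue and siZNF514 in orange, with the mean of 3 libraries as a horizontal line and ± SD as the bar beside it. ALPP sits near 198 CPM in nc and 22.0 CPM in siZNF514, ALPG sits far below it in both groups, and the open triangles for ALPI and ALPL mark the limit of 3 counts per library where no count was found.

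Compared per length, ALPP stood well above ALPG in both groups. The deposited FPKM (fragments per kilobase of gene length, scaled to library size) of ALPP was 44.7, 43.9 and 45.0 in nc and 4.44, 4.27 and 4.88 in siZNF514, and that of ALPG was 1.31, 1.71 and 1.70 in nc and 0.0528, 0.0256 and 0.0978 in siZNF514. The ranges of the genes did not overlap within either group, and the order was ALPP, ALPG, then ALPI and ALPL together at 0. By mean FPKM, ALPP was 28.3-fold above ALPG in nc and 77.1-fold above it in siZNF514. The siZNF514 ratio rests on 2, 1 and 4 counts of ALPG, so its size is uncertain and no widening is read from it. In nc, ALPP ranked 654 among 24147 genes with a value above 0, and in siZNF514 it ranked 6154 among 22858. ALPG ranked 10376 and 18260 in the same order. Among 55 other GPI-anchored surface protein genes, only PRNP, the prion protein gene, had a higher mean FPKM than ALPP in nc (48.9 ± 1.27, n = 3). In siZNF514, 13 of the 55 were higher than ALPP. The ranks and this comparison used the deposited FPKM alone and were not repeated on another gene length.

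The length behind these FPKM values bears on the order of levels. For ALPP it was 4640 bases, which equals the sum of all distinct exons of its 3 GENCODE models, with overlapping exons counted more than once, while its merged exons span 3059 bases. For ALPG it was 2856 bases, against 2493 bases of merged exons in GENCODE release 29. Recomputed as CPM per kilobase of merged exons, ALPP was 64.8 ± 0.846 in nc and 7.19 ± 0.511 in siZNF514 (SD, n = 3), and ALPG 1.73 ± 0.256 and 0.0704 ± 0.0439. On this scale ALPP was 37.5-fold above ALPG in nc and 102.0-fold above it in siZNF514, the latter again on 2, 1 and 4 ALPG counts. The order of ALPP and ALPG held on either length.

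ALPP, ALPG and ALPI lie side by side on chromosome 2 of GRCh38, all on the plus strand, and the first 2 are near copies. ALPP (ENSG00000163283) spans chr2:232378534-232382889, ALPG (ENSG00000163286) chr2:232406843-232410714 and ALPI (ENSG00000163295) chr2:232456123-232460032, each with 11 exons in its main coding transcript. ALPL (ENSG00000162551) stands alone at chr1:21509372-21578412 with 12 exons. The coding sequence of ALPP was 97.8% identical to that of ALPG over 1596 aligned bases, 89.7% identical to that of ALPI and 65.9% identical to that of ALPL. The longest coding stretch that ALPP and ALPG share letter for letter is 339 bases, in exons 8 to 10 of each gene, between chr2:232380714-232381353 for ALPP and chr2:232408795-232409434 for ALPG. Its first 100 bases are shown, from GENCODE release 29 transcripts (GRCh38, 5′ to 3′), because reads that fall in them cannot be assigned to 1 of the 2 genes, with the bases at which ALPI differs from ALPP in capitals:
ALPP: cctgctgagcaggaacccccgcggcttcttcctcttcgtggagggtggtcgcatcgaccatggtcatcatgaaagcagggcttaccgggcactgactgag
ALPG: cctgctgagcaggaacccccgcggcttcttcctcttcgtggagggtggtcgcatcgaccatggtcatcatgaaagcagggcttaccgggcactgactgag
ALPI: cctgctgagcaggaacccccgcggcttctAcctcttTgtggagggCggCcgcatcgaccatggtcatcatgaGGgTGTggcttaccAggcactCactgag
ALPI differs at 11 of these bases and at 49 of the 339.

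Over whole transcripts, 15.8% of the 100-base windows of ALPG occurred letter for letter in ALPP, and 8.49% of its 150-base windows did. No 100-base window was shared between ALPI and ALPP or between ALPI and ALPG, and no window of 50 bases was shared between ALPL and any of the 3 others. The read length and the handling of reads that fit several places are not stated in the labels, so how reads of ALPP and ALPG were divided is uncertain. When ALPP, ALPG and ALPI were summed to 1 feature, so that the division no longer mattered, the log2 fold change was -3.19 (SE 0.06), close to that of ALPP alone.

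The part of ALPG in the summed counts of the pair is given as a description, since the family was chosen from this comparison. Its share was 1.77%, 2.35% and 2.27% in nc, against 0.727%, 0.368% and 1.22% in siZNF514. The siZNF514 libraries were all lower than the nc libraries, though their own intervals were wide at 272 to 328 counts of the pair per library. Over the summed counts the share was 2.13% in nc, with an exact 95% Clopper-Pearson interval of 1.83% to 2.47%, and 0.800% in siZNF514, with an interval of 0.322% to 1.64%. These intervals cover counting error of pooled reads only and leave out spread between libraries. The siZNF514 share rests on 2, 1 and 4 counts of ALPG, which entered the comparison through the nc libraries alone. No difference in share between the groups is read from it. How many of the ALPG counts came from ALPP transcripts was not tested.

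**Figure D2:**
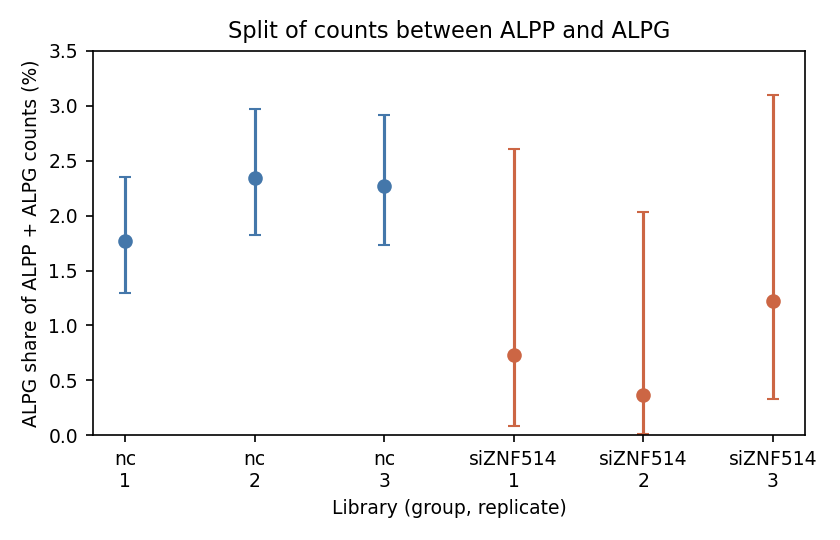
Share of ALPG among the summed counts of ALPP and ALPG (percent) in each library, nc in blue and siZNF514 in orange, with exact 95% Clopper-Pearson intervals as bars for counting error only. The nc points lie at 1.77% to 2.35% and the siZNF514 points at 0.368% to 1.22%, the latter with wide bars.

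An antisense model, AC068134.1, lies across ALPP on the other strand, and 555 of its 680 exonic bases overlap ALPP exons in GENCODE release 29. It had no count in any library, in nc, where ALPP had 2545 to 2789 counts, as well as in siZNF514. The strand setting of the counting is not given, so reads from it and from ALPP could not be told apart if the counting ignored strand.

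The sequence just before the transcript start was compared, because the 2 members with counts were lower in the same libraries while ALPI, beside them, had none. RefSeq windows of 300 bases (250 before and 50 after the start, GRCh38.p14) were available for all 4 members, 1 each for ALPP, ALPG and ALPI and 3 for ALPL. The 140 bases before the start are shown for the chromosome 2 genes, on the plus strand and 5′ to 3′, with runs of at least 12 letters shared by all 3 in capitals (chr2:232378611-232378750 for ALPP, chr2:232406704-232406843 for ALPG and chr2:232456013-232456152 for ALPI):
ALPP: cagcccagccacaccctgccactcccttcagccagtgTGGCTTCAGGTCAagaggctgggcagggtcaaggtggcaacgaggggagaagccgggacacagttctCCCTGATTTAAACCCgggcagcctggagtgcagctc
ALPG: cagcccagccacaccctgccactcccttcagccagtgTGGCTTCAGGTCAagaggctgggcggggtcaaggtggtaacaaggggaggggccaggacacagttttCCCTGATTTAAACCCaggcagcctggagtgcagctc
ALPI: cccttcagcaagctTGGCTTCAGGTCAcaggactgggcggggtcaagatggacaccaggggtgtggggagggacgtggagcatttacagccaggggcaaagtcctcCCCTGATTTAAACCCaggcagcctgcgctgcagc
Each gene holds 2 such runs, of 13 and 15 letters. RefSeq starts differ from the gene starts given above: the ALPP stretch lies wholly inside the gene span of the table, as do the last 30 bases of the ALPI stretch and the last base of the ALPG stretch.

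The longer run contains TTTAAA, which resembles a core promoter element, and in ALPP and ALPG it lies 36 to 22 bases before the start. The shorter run ends in AGGTCA, the half-site letters that several nuclear receptors recognise. Searched on both strands, TTTAAA occurred in 12.2% and AGGTCA in 13.8% of 35116 RefSeq windows of the same length, and the windows of ALPP, ALPG and ALPI held each of them 1 time. The 2 motifs do not overlap. The AP-1 letters TGACTCA, found in 4.95% of all windows, were in none of the members' windows. The GC box letters GGGCGG, found in 45.0% of all windows, occurred 1 time in ALPG and in ALPI, not in ALPP, and 4 times in the ALPL window chr1:21509173-21509472. The 3 chromosome 2 windows had 6, 6 and 7 CpG pairs, under the median of 14, and that ALPL window had 42. Over the aligned bases, the ALPP window was 86.7% identical to that of ALPG and 70.3% identical to that of ALPI. The shared letters were therefore found in a gene with no count as well as in the 2 that were lower, and a match describes the letters only.

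Genes around the chromosome 2 members differed in level and direction. Between ALPP and ALPI, apart from ALPG, lie 4 gene models, among them the pseudogenes ECEL1P2, ECEL1P1 and DIS3L2P1, and all 4 had no count in any library. Within 500 kb on either side there were 25 other genes, of which 13 had no count in any library and 6 could be tested. Of these 6, 2 rose, 1 fell and 3 did not pass an adjusted p of 0.05 (edgeR), where 50.6% of all 14250 tested genes passed in either direction. EIF4E2, a cap-binding translational repressor, rose from 94.0 ± 4.51 to 165 ± 5.32 CPM, and TIGD1, which overlaps it, from 11.6 ± 1.55 to 17.1 ± 1.14 CPM. The gene that fell was NRBF2P6, a pseudogene lying within DIS3L2, with 10, 27 and 14 counts in nc and 6, 1 and 4 in siZNF514. Its call was lost without nc replicate 2 and without siZNF514 replicate 3. DIS3L2, the nearest coding gene upstream of ALPP, did not pass at a log2 fold change of 0.25 (SE 0.09), and passed without nc replicate 1, at 0.33, and in the DESeq2 Wald test. The tested gene models nearest to ALPP were thus DIS3L2, which did not pass, and NRBF2P6, which fell on few counts, and the 2 that rose lie on the far side of ALPI.

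**Figure D3:**
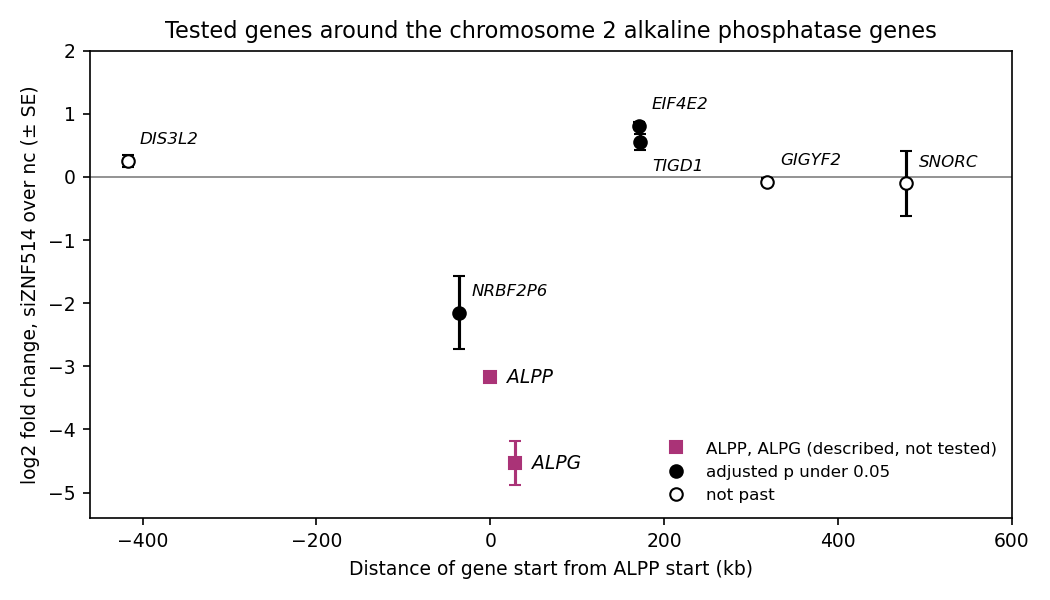
Log2 fold change of siZNF514 over nc (± SE) against the distance of each gene's start from that of ALPP in kilobases, for genes within 500 kb with enough counts. ALPP and ALPG (squares, described and not tested) lie at -3.17 and -4.53, filled circles passed an adjusted p of 0.05, and open circles did not.

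Around ALPL on chromosome 1, 29 other genes lay within 500 kb and 9 could be tested. Of these, 2 rose, 2 fell and 5 did not pass, where 50.6% of all tested genes passed in either direction. The nearest tested genes, NBPF3 (log2 fold change -0.11, SE 0.14) and RAP1GAP (-0.05, SE 0.10), were among the 5 that did not pass. LINC00339, chosen by its change of over 2-fold, fell from 4.72 ± 0.202 to 1.83 ± 0.196 CPM. ALPL itself, with no count, lay between transcribed genes.

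The genes whose profile over the 6 libraries was most like that of ALPP were found by the root mean square distance between log2 CPM values centred on each gene's mean. They were the linker histone gene H1-2 (distance 0.09), the metallothionein gene MT1B (0.15), the aquaglyceroporin gene AQP3 (0.17), the histone gene H4C8 (0.19) and the transcript AC019069.1 (0.19). H1-2 had 8081, 8950 and 8005 counts in nc and 958, 1023 and 1093 in siZNF514, a log2 fold change of -3.01 (SE 0.04). AQP3 had 139, 130 and 155 against 16, 15 and 14. MT1B had 12, 14 and 16 against 0 in each siZNF514 library, so its distance depends on the prior count of 2. With 2 groups, any gene with a drop of the same size is near ALPP on this measure.

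The 3 zinc transporter genes that serve alkaline phosphatases were lower as well, the third of them only slightly. SLC30A5 and SLC30A6 encode ZnT5 and ZnT6, which act as a heterodimer, and SLC30A7 encodes ZnT7, and these carriers are known for loading zinc into alkaline phosphatases in the early secretory pathway. SLC30A7 had 1310, 1475 and 1278 counts in nc and 454, 487 and 466 in siZNF514, and fell from 102.0 ± 1.34 to 35.7 ± 1.59 CPM. SLC30A6, with 1347, 1426 and 1327 against 573, 546 and 518 counts, fell from 103 ± 2.66 to 41.6 ± 3.51 CPM. Their log2 fold changes were -1.51 (SE 0.05, adjusted p = 5.3e-06) and -1.31 (SE 0.07, adjusted p = 2.02e-05) by edgeR. Leaving out any single library kept both past the threshold, at -1.54 to -1.47 and -1.36 to -1.24. SLC30A5 fell slightly, from 77.9 ± 6.66 to 67.0 ± 0.895 CPM (edgeR, adjusted p = 0.0356), a call lost with the replicate number as a block, with no filter on low counts and without any 1 library other than nc replicate 1. SLC30A5 and SLC30A6 were singled out after their values were seen.

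Of 16 measured zinc transporter genes in all, 6 fell, 10 missed the threshold and 0 rose. These 37.5% called compare with 50.6% of all tested genes. Their median difference was -0.18 on the log2 scale, against -0.01 over all tested genes, of which 25.1% fell and 25.5% rose. By unadjusted p under 0.05, 2 rose, and in the DESeq2 Wald test 1 rose and 5 fell. SLC39A14, an importer of zinc, iron and manganese singled out in the same way, fell by 0.76 on the log2 scale and SLC39A7, which releases zinc from the endoplasmic reticulum, by 0.28, while SLC39A6 (0.03) and SLC30A9 (0.24) did not pass.

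**Figure D4:**
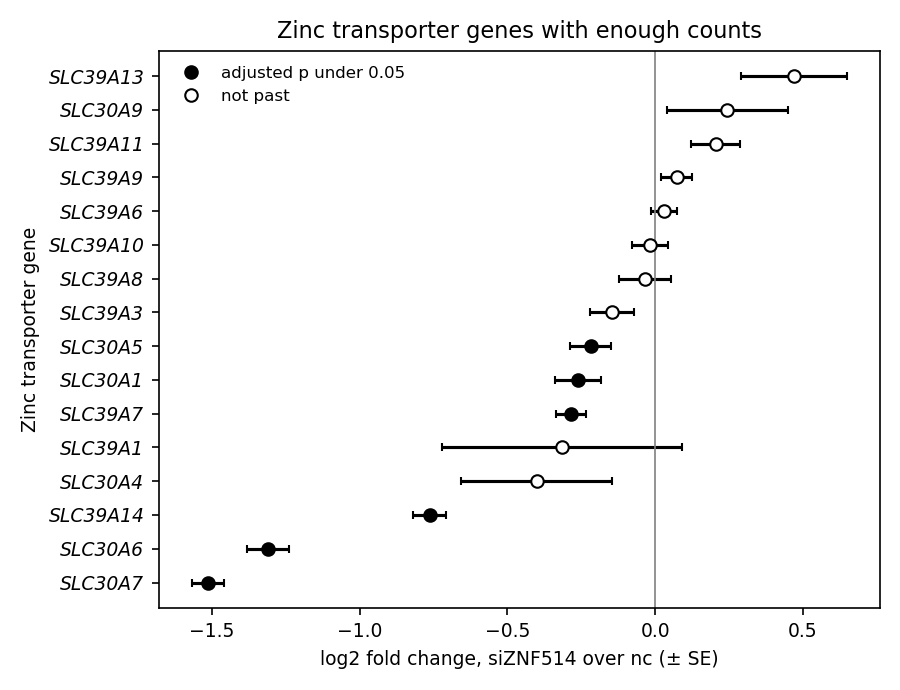
Log2 fold change of siZNF514 over nc (± SE) for the 16 zinc transporter genes with enough counts, filled circles for an adjusted p under 0.05. SLC30A7 and SLC30A6 lie farthest to the left, at -1.51 and -1.31, and SLC30A5 lies near 0 at -0.22.

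Genes that build and attach the GPI anchor, which holds all 4 enzymes on the membrane, changed in both directions, with 1 exception by under 2-fold. Among the 33 genes measured, 4 rose and 9 fell, 20 missed the threshold, and the median difference was -0.02 on the log2 scale. These 39.4% called compare with 50.6% of all tested genes. The mannosyltransferase gene PIGM fell from 34.7 ± 3.79 to 9.74 ± 0.261 CPM (-1.83, SE 0.11), the single change of over 2-fold on the list, where 9.28% of all tested genes passed with at least 2-fold. PIGT, a subunit of the transamidase that joins protein to anchor, did not pass (0.03, SE 0.05), nor did the cargo receptor gene TMED9 (0.00, SE 0.05). DPM1, which makes the mannose donor, rose (0.32, SE 0.05). With total counts alone in place of TMM scaling, 2 rose and 12 fell.

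Other GPI-anchored surface proteins did not follow ALPP as a group. Of 25 measured genes, 8 rose, 8 fell and 9 missed the threshold, their median being -0.02, so that 64.0% were called against 50.6% of all tested genes. With total counts alone, 5 rose and 11 fell. SEMA7A, a semaphorin singled out after its value was seen, rose from 40.0 ± 5.51 to 125 ± 11.1 CPM, and PLAUR, the urokinase receptor, from 49.7 ± 3.10 to 121 ± 4.86 CPM. PRNP fell (-0.65, SE 0.21), a call lost when any nc library was left out, MELTF, melanotransferrin, fell (-0.49, SE 0.04), and CD109 (-0.02, SE 0.04) and ULBP2 (-0.00, SE 0.15) did not pass. None of the 25 had a drop as large as that of ALPP, the nearest being GAS1 at -1.58, chosen after its value was seen. ALPP was itself picked as a strong decrease, so this does not set it apart from them. Among listed genes with too few counts to test, FOLR1 had 12, 8 and 9 counts in nc and 0, 0 and 2 in siZNF514.

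Genes that share substrates with alkaline phosphatases changed in both directions. Among 12 measured genes of extracellular phosphate, pyrophosphate and nucleotide handling, 5 rose, 3 fell and 4 missed the threshold, their median being 0.05. That is 66.7% called, against 50.6% of all tested genes, and with total counts alone 3 rose and 5 fell. Adenosine deaminase, ADA, rose (0.66, SE 0.07), the phosphate importer gene SLC20A1 rose (0.23, SE 0.04) but not with total counts alone (0.10), and the phosphate exporter gene XPR1 fell (-0.60, SE 0.06). NT5E, which like alkaline phosphatase makes adenosine from AMP, had 1, 13 and 8 counts in nc and 3, 5 and 5 in siZNF514, too few to test. Of 7 acid phosphatases, 28.6% were called: ACP1 rose (0.42, SE 0.05), ACP2, the lysosomal enzyme, fell (-0.63, SE 0.13), and 5 did not pass, among them MINPP1 (0.00, SE 0.08). In vitamin B6 metabolism, PDXK, the kinase acting on the dephosphorylated vitamin, did not pass (0.08, SE 0.05), nor did PLPBP, which binds its active form (-0.02, SE 0.06).

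Of 11 measured transcription factors that have been studied at alkaline phosphatase promoters, 2 rose, 4 fell and 5 missed the threshold, their median being -0.04. The 54.5% called lie near the 50.6% of all tested genes. SP1 rose from 74.1 ± 0.964 to 126 ± 1.51 CPM, the retinoid X receptor gene RXRA fell from 88.6 ± 3.58 to 57.0 ± 1.18 CPM, and the vitamin D receptor gene VDR did not pass (0.08, SE 0.06).

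Markers of trophoblast and enterocytes, where ALPP and ALPI are normally found, had few or no counts. Of 25 trophoblast markers, 8 had no count in any library, HLA-G, CGB3 and CSH1 among them, and 2 had enough counts to test. CGA, the hormone alpha subunit, had 71, 78 and 67 counts in nc and 12, 6 and 10 in siZNF514. It fell by 2.92 on the log2 scale (SE 0.24), from 5.42 ± 0.120 CPM to 0.711 ± 0.242 CPM. PLAC1 did not pass (-0.37, SE 0.25). Of the 2 tested markers 1 passed, where 50.6% of all tested genes passed in either direction and 25.1% were lower. The summed level of the trophoblast list was 12.1 to 12.9 CPM in nc and 3.92 to 6.74 CPM in siZNF514. CGA had the largest part in this difference, so the sum does not describe the list as a whole. For 30.3% of all tested genes, every siZNF514 library lay below every nc library. The list sum was lower in the same libraries as ALPP, and its part in the ALPP result was not tested. For scale, ALPP alone was at 198 CPM in nc. Of 17 enterocyte markers, 10 had no count and 0 could be tested, with summed levels of at most 1.01 CPM in nc and 0.366 CPM in siZNF514.

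Germ cell tumour markers gave summed levels of 64.1 to 68.9 CPM in nc and 66.2 to 70.8 CPM in siZNF514, mostly from TFAP2C, and 0 of 4 measured members passed in edgeR, with 2 at an unadjusted p under 0.05, 1 past in DESeq2 and 0 in limma. Osteoblast markers summed to 17.3 to 27.0 CPM in nc and 21.9 to 38.7 CPM in siZNF514, with COL1A1 higher, PHEX lower and RUNX2 not past. The upper siZNF514 value came from replicate 3, and COL1A1 was 0.50 without that library. COL1A1 no longer passed without nc replicate 2 or 3, nor in limma. In edgeR, 66.7% of the 3 measured osteoblast markers passed. The share over all tested genes, 50.6% in either direction, applies to each list of this paragraph. Squamous epithelial markers, the class of the line itself, summed to 1780 to 1933 CPM in nc and 1350 to 1478 CPM in siZNF514. Of 10 measured, 6 fell, 4 did not pass and 0 rose, with 0 higher also by unadjusted p and in DESeq2 and limma, against 25.1% of all tested genes lower. KRT5 fell from 650 ± 42.5 to 455 ± 37.1 CPM and KRT6A from 40.3 ± 9.93 to 9.02 ± 0.408 CPM (log2 fold change -2.16, SE 0.18). KRT14, singled out after its value was seen, fell by 1.23 on the log2 scale. These decreases moved with the ALPP result, and their part in it was not tested. Blood cell markers summed to 61.8 to 74.1 CPM in nc and 59.7 to 64.9 CPM in siZNF514, mostly from CD68. Of 2 measured, 1 was called, S100A9, which was higher. Fibroblast and endothelial markers summed to 4.89 to 6.55 CPM in nc and 2.43 to 15.7 CPM in siZNF514, with 0 of 3 past in edgeR, DESeq2 and limma and 0 at an unadjusted p under 0.05. The 15.7 CPM belong to siZNF514 replicate 3, in which ALPP was 23.7 CPM against 21.4 and 20.8 CPM in the others.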

How the data were processed

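Total RNA of 6 libraries was sequenced on an Illumina instrument, per the labels' protocols, and HISAT2 2.0.4, hg38, StringTie 1.3.3b and edgeR are listed, without a role, per the submitters' processing notes. The deposited count columns held raw counts per gene. The deposited FPKM columns were counts per library total and per length, and for 86.3% of 10954 genes with at least 50 counts that length was within 0.5% of the sum of distinct GENCODE release 29 exons.

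The table was filtered with filterByExpr (minimum count 10), scaled by TMM and fitted by the edgeR 4.0.16 quasi-likelihood test (R 4.3.3) with Benjamini-Hochberg adjustment at 0.05 over 14250 genes. CPM used TMM-scaled totals of tested genes. The SE is the log2 fold change divided by the square root of F. Alternatives used DESeq2 1.42.0, limma 3.58.1 on log2(FPKM + 0.1), other scalings and filters, and each library left out. The fitting code was also run on simulated counts, with far fewer changed genes than were called here. That run does not check the calls in these data. Sequences were aligned with Biopython 1.88.

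Members and the 14 gene lists were chosen with earlier results of these data known. The summary of the vitamin B6 list is not reported here. Named genes were the 4 members, ZNF514, per list the 3 with the highest mean FPKM and the smallest p-value in each direction, the nearest and over 2-fold neighbours, and the 5 most like ALPP. Other genes are named for context or as absent. Replicate libraries differed by more than counting noise (chi-square per degree of freedom 7.43 to 9.69). No batch is given in the labels.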

Additional observations from a re-analysis of the deposited data

How the results depend on the processing

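ALPP and ALPG were lower in siZNF514 under each alternative in which they could be fitted (ALPG was not kept at a mean count of at least 50). The ALPP log2 fold change of -3.17 was -3.30 with total counts alone, -3.04 in limma on log2(FPKM + 1) and -3.30 on log2(FPKM + 0.01), and ran from -3.22 to -3.13 with 1 library left out. For ALPG, -4.53 became -3.41 in limma on log2(FPKM + 0.1), with or without its other filters, and -1.28 on log2(FPKM + 1), since the pseudocount exceeds the siZNF514 level, and ran from -5.09 to -4.18 with 1 library left out. As shares of summed FPKM, ALPG made up 3.41% in nc and 1.28% in siZNF514. ALPP in nc was 42.7 CPM per kilobase of the FPKM length and 64.8 per kilobase of merged exons, and in siZNF514 it was 7.19 on the latter scale, an alternative chosen after seeing the data.

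Of all genes, 7212 passed, 6640 with the replicate number as a block and 6310 to 6563 with 1 library left out. With total counts alone 2493 were higher and 4775 lower, and the median moved to -0.14. With the replicate block, ALPP was -3.17 and ALPG -4.54. No pairing by replicate number was visible, as same-numbered deviations correlated at 0.0075, 0.041 and -0.036 and differently numbered ones at -0.063 to 0.053. Whether same-numbered libraries shared a culture or day is not stated, and these correlations cannot decide it. Around ALPL, 4 neighbours passed, and 2 did in limma at a mean FPKM of at least 0.5, a filter that removes LINC00339 (mean FPKM 0.479), while USP48 did not pass in limma (log2 fold change of USP48 0.10). ALPG in siZNF514, at 1 to 4 counts, is limited by depth.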
